A study of Mus musculus with 18 samples.

Results

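Efemp1, Fgf13 and Tgfbi are 3 mouse genes whose array levels parted the samples of this series into sets that did not follow the labelled cell lines. They were chosen by their measured levels, as genes that differ by many log2 units between pairs of arrays, so those levels are described here and not tested. All 7 probe sets annotated to them were used, out of 45101 in the table: 1 for Efemp1, 2 for Fgf13 and 4 for Tgfbi. A probe set is a group of short oligonucleotides read together as 1 transcript signal. Where a gene has several, the one with the highest mean signal stands for it (1448123_s_at for Tgfbi and 1418497_at for Fgf13). All 3 genes were among the 10916 of 18193 genes that passed a filter on the mean level.

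Efemp1 encodes fibulin-3, a secreted glycoprotein of the extracellular matrix that belongs to the fibulin family, some members of which help to assemble elastic fibres. Fgf13 encodes a fibroblast growth factor homologous factor: unlike the secreted growth factors of the family it stays inside the cell, where it binds voltage-gated sodium channels and microtubules. Tgfbi encodes a secreted matrix protein with fasciclin domains that is induced by transforming growth factor beta and that binds collagens and integrins.

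The cells were A2C12, betaD5 and cRAF_cMYC, lines that arose by spontaneous transformation of cells from lung tumours of mice aged 8 months that carried both a c-myc and a c-raf transgene. All groups share this origin, and the labels do not give the promoter of the transgenes or say whether a line is a clone. Each line was separated into side population (SP) cells, which pump out the DNA dye Hoechst and so stay dim, and the remaining non-side-population (nonSP) cells, with no treatment named. Line and fraction together give 6 groups of 3 arrays each, 18 in all, made from 200 ng of total RNA, and the question of the series was how SP and nonSP cells differ. The labels number the arrays 1 to 3 but name no separate cultures or sorts, so p-values measure only the spread between these samples, which may be technical. A pair below is the SP and the nonSP array of 1 line and number.

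Several arrays did not resemble the line they are labelled with. Over the 10916 genes, the nonSP array of betaD5 1 correlated at most at 0.925 with betaD5 arrays of another number but at 0.982 with an array labelled cRAF_cMYC, and that of cRAF_cMYC 3 at most at 0.929 with its own line but at 0.988 with an array labelled betaD5. Lines are therefore named as labelled, and the gaps and the SP comparisons in betaD5, cRAF_cMYC and the mean of the lines are also given without these 2 pairs. Array medians lay between 5.80 and 6.72 (log2), and the number of arrays limits the precision. The epithelial keratin Krt19 lay between 9.58 and 12.42 on all arrays. It was 1 of 4 epithelial markers of 8 that passed the filter, and the cadherin Cdh1, named after its values were seen, read 3.37 to 6.97. Of the lung epithelial types, 2 of 7 alveolar type II markers and 1 of 4 club cell markers passed the filter.

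RefSeq gives Efemp1 on chromosome 11 (28853154 to 28926743), Tgfbi on chromosome 13 (56609586 to 56639359) and Fgf13 on chromosome X (59062139 to 59585572), all in the build GRCm38.p6. The windows around their starts, from RefSeq, are shown because the 3 genes divide the arrays at the same place, Fgf13 in the opposite direction. That division also chose the genes. Fgf13 has 4 annotated starts against 1 each for Efemp1 and Tgfbi. Only the 2 Fgf13 windows rich in CpG are printed. Capitals mark matches on either strand to any of 4 motifs, and overlapping matches run together. The first motif is the E-box that Myc binds with its partner Max, spelled CACGTG. The AP-1 motif, bound by Fos and Jun proteins, is spelled TGANTCA. The GC box, bound by Sp1, is spelled GGGCGG. The TATA box, near the start of some genes, is spelled TATAAA.
Efemp1 chr11:28852955-28853254, plus strand: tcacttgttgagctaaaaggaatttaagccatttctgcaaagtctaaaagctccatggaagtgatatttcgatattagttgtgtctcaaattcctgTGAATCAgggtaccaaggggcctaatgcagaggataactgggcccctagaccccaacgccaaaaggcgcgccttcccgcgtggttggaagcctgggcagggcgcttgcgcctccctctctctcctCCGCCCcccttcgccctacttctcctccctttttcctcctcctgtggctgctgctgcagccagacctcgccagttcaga
Fgf13 chrX:59567299-59567598, minus strand: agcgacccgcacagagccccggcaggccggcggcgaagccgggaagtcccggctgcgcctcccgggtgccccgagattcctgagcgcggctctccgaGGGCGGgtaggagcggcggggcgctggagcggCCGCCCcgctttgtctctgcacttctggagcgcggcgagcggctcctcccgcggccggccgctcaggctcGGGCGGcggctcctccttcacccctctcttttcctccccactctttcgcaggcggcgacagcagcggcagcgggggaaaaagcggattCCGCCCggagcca
Fgf13 chrX:59134387-59134686, minus strand: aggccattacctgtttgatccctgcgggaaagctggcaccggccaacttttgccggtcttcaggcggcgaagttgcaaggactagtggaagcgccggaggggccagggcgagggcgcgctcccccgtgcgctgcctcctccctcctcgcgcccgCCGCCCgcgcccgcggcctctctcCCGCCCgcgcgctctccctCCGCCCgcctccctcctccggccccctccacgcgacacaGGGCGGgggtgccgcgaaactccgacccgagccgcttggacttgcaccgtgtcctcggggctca
Tgfbi chr13:56609336-56609635, plus strand: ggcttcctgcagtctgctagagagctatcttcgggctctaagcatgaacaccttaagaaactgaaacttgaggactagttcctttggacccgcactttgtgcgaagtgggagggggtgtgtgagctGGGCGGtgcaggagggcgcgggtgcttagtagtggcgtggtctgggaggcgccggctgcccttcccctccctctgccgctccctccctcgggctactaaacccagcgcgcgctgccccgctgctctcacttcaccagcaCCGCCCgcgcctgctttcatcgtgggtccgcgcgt

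The Efemp1 window held 1 AP-1 match and 1 GC box, and the Tgfbi window held 2 GC boxes. Each of the 2 printed Fgf13 windows held 4 GC boxes. Of the 2 not printed, chrX:59166039-59166338 held 1 AP-1 match and 1 TATA box, and the other held no match. Of 32851 windows of the same length over all genes, 35.7% held a GC box, 7.81% an AP-1 match, 7.15% an E-box and 13.6% a TATA box. No E-box was in any of the 6 windows of the 3 genes. CpG numbered 11 in Efemp1, 22 in Tgfbi, 40 and 37 in the printed Fgf13 windows, and 3 and 6 in the Fgf13 windows not printed, against a median of 7 over all windows. A match is a description of letters and no evidence of binding.

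Efemp1 was either among the highest or among the lowest signals of an array. In the line labelled betaD5 the nonSP arrays 1, 2 and 3 read 13.86, 4.37 and 4.38 (log2 signal), and the SP arrays 13.82, 4.51 and 4.68. In cRAF_cMYC the nonSP arrays read 12.74, 13.90 and 3.93, and the SP arrays 12.60, 13.68 and 4.46. In A2C12 the nonSP arrays read 13.34, 13.25 and 13.31, and the SP arrays 13.31, 13.11 and 13.19. Both arrays of betaD5 2, betaD5 3 and cRAF_cMYC 3 were thus low, and both arrays of the 6 other pairs were high, with no array between 4.68 and 12.60. This gap of 7.92 was the second widest among all genes tested. The high readings lay at percentiles 98.6 to 99.4 of their own arrays and the low ones at percentiles 8.29 to 17.6. The table holds no detection calls, so how far a low reading lies above the background of an array was not analysed here, and a difference from a low reading may understate the change in RNA. These are bulk samples, in which fewer cells with a transcript and less transcript per cell cannot be told apart.

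Fgf13 had the opposite pattern. In betaD5 the nonSP arrays 1, 2 and 3 read 6.18, 12.30 and 12.60, and the SP arrays 6.07, 12.63 and 12.34. In cRAF_cMYC the nonSP arrays read 4.97, 4.47 and 12.35, and the SP arrays 5.22, 4.29 and 12.28. In A2C12 the nonSP arrays read 3.12, 4.46 and 3.80, and the SP arrays 3.38, 4.32 and 3.97. The 6 arrays that were low in Efemp1 were those high in Fgf13, and a gap of 6.11 parted them from the other 12. Among those 12, both arrays of betaD5 1 were highest, at 6.07 and 6.18, and lay at or below the 44.6 percentile of their arrays. They lay above the 6 A2C12 arrays, of which the highest read 4.46.

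The other Fgf13 probe set, 1418498_at, did not part the arrays in this way. It read between 5.62 and 6.23 on the arrays of betaD5 2, betaD5 3 and cRAF_cMYC 3, and between 3.94 and 5.63 on the other 12, so that the sets overlapped. Its widest gap was 0.43 and set 10 arrays against 8. On its own it did not pass the filter on low levels when every probe set was tested. The Fgf13 pattern therefore rests on 1 of 2 probe sets, and which of the 4 annotated starts each one reads was not analysed here.

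Tgfbi took 3 levels. In betaD5 the nonSP arrays 1, 2 and 3 read 11.61, 5.39 and 5.26, and the SP arrays 11.69, 5.03 and 4.86. In cRAF_cMYC the nonSP arrays read 11.63, 12.51 and 4.90, and the SP arrays 10.98, 11.88 and 4.99. In A2C12 the nonSP arrays read 8.56, 8.80 and 9.58, and the SP arrays 9.30, 8.48 and 9.67. The arrays of betaD5 2, betaD5 3 and cRAF_cMYC 3 were again lowest, the 6 A2C12 arrays lay between, and the arrays of betaD5 1, cRAF_cMYC 1 and cRAF_cMYC 2 were highest. The gap below A2C12 was 3.09 and the gap above it 1.31, and no array of 1 set overlapped another set. Tgfbi is therefore the member that also parts the A2C12 arrays from those of betaD5 1, cRAF_cMYC 1 and cRAF_cMYC 2, which Efemp1 read alike: 13.11 to 13.34 in A2C12 against 12.60 to 13.90.

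All 4 Tgfbi probe sets gave this order without overlap. The gap above the lowest 6 arrays was 2.01 for 1415871_at, 3.42 for 1437463_x_at and 4.46 for 1456250_x_at. On 1456250_x_at the lowest 6 arrays read 3.71 to 4.12, A2C12 8.58 to 9.77 and the highest 6 arrays 11.04 to 12.73. The probe sets differ in how low the low arrays read, between percentiles 3.3 and 27.1 of an array, and in the lowest A2C12 reading, from 6.99 on 1415871_at to 8.58 on 1456250_x_at.

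**Figure D1:**
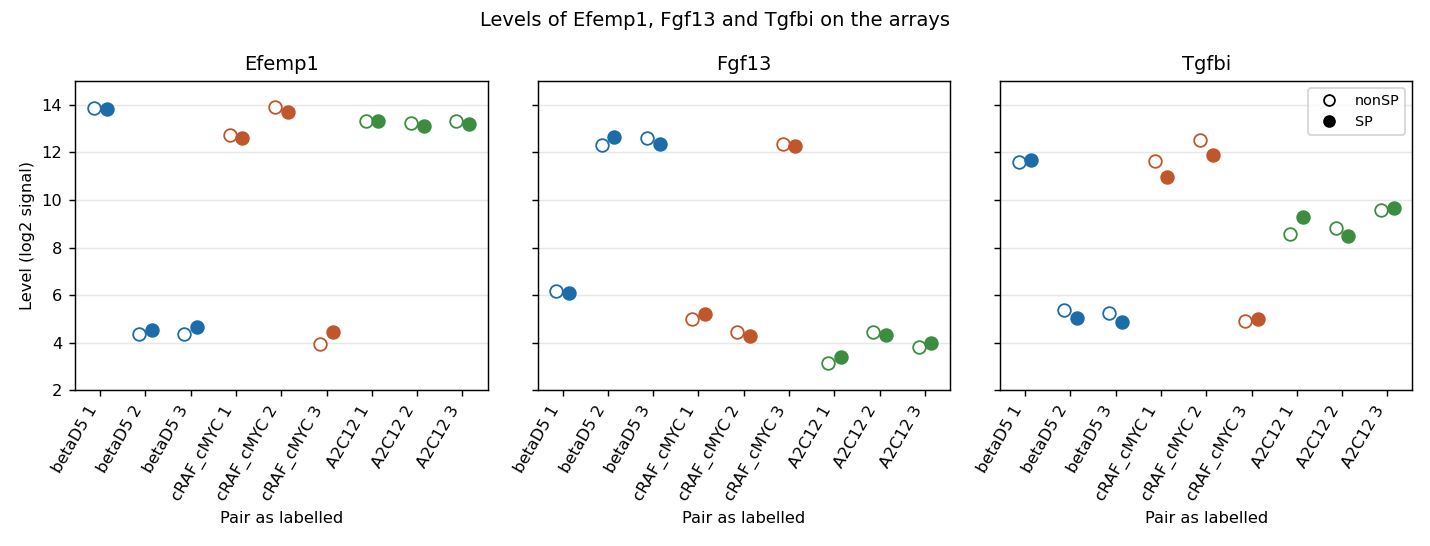
Log2 signal of each gene (y axis) on each array by labelled pair (x axis), open circles nonSP and filled circles SP, coloured by labelled line. Efemp1 and Tgfbi are lowest and Fgf13 is highest in betaD5 2, betaD5 3 and cRAF_cMYC 3, and Tgfbi in A2C12 lies between 8.48 and 9.67.

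**Figure D2:**
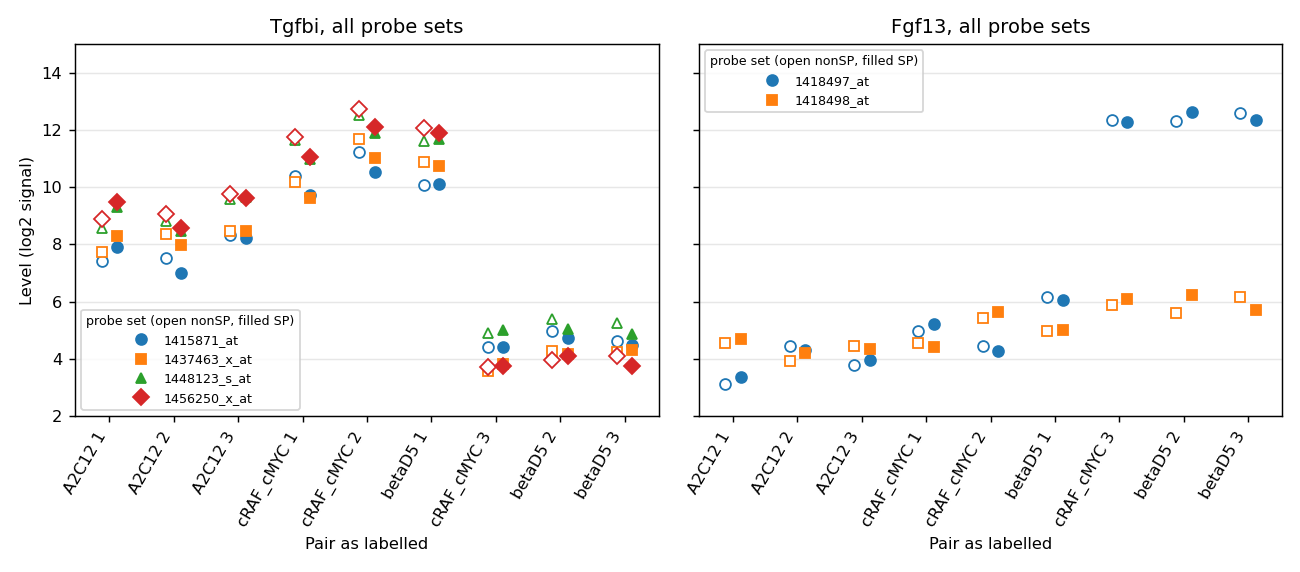
Log2 signal (y axis) of the 4 Tgfbi and 2 Fgf13 probe sets by labelled pair (x axis), open symbols nonSP and filled symbols SP. All Tgfbi probe sets put A2C12 between the other 2 sets of arrays, whereas Fgf13 1418498_at stays between 3.94 and 6.23.

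Averaged by label, the members lose this pattern in 2 lines and keep it in the other. Efemp1 was 13.30 ± 0.05 in A2C12 nonSP (SD, n = 3), 10.19 ± 5.45 in cRAF_cMYC nonSP and 7.54 ± 5.48 in betaD5 nonSP. Fgf13 was 3.80 ± 0.67, 7.26 ± 4.41 and 10.36 ± 3.63 in the same groups, and Tgfbi 8.98 ± 0.53, 9.68 ± 4.17 and 7.42 ± 3.63. In betaD5 and cRAF_cMYC the SD spans the high and the low arrays, and neighbouring means in these orders did not differ beyond it. Without the pairs betaD5 1 and cRAF_cMYC 3, a choice made after the values were seen, the gap of each gene set betaD5 against A2C12 and cRAF_cMYC, at 7.92 for Efemp1, 7.08 for Fgf13 and 3.09 for Tgfbi. On these 14 arrays 111 of 10916 genes (1.02%) put betaD5 below the others, as Efemp1 and Tgfbi did, and 851 (7.8%) put it above, as Fgf13 did. These counts are without rescaling, on which their balance may depend. The betaD5 arrays left had medians of 6.59 to 6.72, against at most 6.53 on the others.

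The same division of the arrays was found in a small share of all genes. A widest gap that put the arrays of betaD5 2, betaD5 3 and cRAF_cMYC 3 below the other 12, as in Efemp1 and Tgfbi, was found in 116 of 10916 genes (1.06%), and one that put them above, as in Fgf13, in 279 (2.56%). With the arrays scaled to equal medians these counts were 307 and 152, and with quantile normalization 386 and 224, so the balance of lower to higher depends on the scaling. The 2 widest gaps followed the order of Tgfbi in 14 genes (0.128%), among them the collagen chain Col6a3 and the secreted protein Serpinf1. By comparison the widest gap set A2C12 apart in 1251 genes, the 6 arrays labelled betaD5 in 7 and the 6 labelled cRAF_cMYC in 0. A2C12 was the lower set in 1170 of the 1251 and the higher in 81. These counts are without rescaling and may depend on it, as the A2C12 medians were 5.80 to 6.06. Wide gaps chose the members, and nothing is read from the shares about the 3 genes.

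Genes most like each member were taken by the mean absolute difference in level over the 18 arrays, after each gene was centred on its own mean. Closest to Efemp1 was Cthrc1, a secreted collagen-associated protein, at 0.60 (log2), which read 4.33 to 5.61 on the arrays of betaD5 2, betaD5 3 and cRAF_cMYC 3 and 12.02 to 13.49 on the others. Xist, the RNA that silences an X chromosome, followed at 1.34, then Rgs5, a regulator of G protein signalling, at 1.49. Serpinf1, or pigment epithelium-derived factor, and Fam135a came next, the latter at 1.61. With the sign turned, Fgf13 itself was closest at 0.77, before Plxdc2 at 1.64 and the G protein subunit Gnai1 at 2.24.

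Closest to Fgf13 in its own direction were Plxdc2, a membrane protein, at 1.27, Gnai1 at 1.51, the LIM domain protein Fhl1 at 1.86, the matrix protease Adamts5 at 1.97 and the sodium pump subunit Atp1b1 at 1.98. The widest gap of Gnai1, Adamts5 and Atp1b1 divided other arrays than that of Fgf13. Plxdc2 read 9.70 to 10.53 on the arrays high in Fgf13 and 3.93 to 5.44 on the others. With the sign turned, Cthrc1 at 0.67, Efemp1 at 0.77 and Rgs5 at 1.12 were closer to Fgf13 than any gene in its own direction.

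Closest to Tgfbi were Serpinf1 at 0.40, Col6a3 at 0.54, the sphingosine phosphate receptor S1pr3 (widest gap elsewhere) at 0.55, the kinase Prkd1 at 0.60 and BC028528 at 0.64. Serpinf1 shared the 3 levels: 5.42 to 6.08 on the lowest 6 arrays, 9.88 to 10.85 in A2C12 and 12.54 to 13.33 on the highest 6. Scel at 1.09, Itih2 at 1.12 and Plxdc2 at 1.21 were closest with the sign turned. Between the members, Efemp1 and Tgfbi differed by 1.74 and Fgf13 with the sign turned differed from Tgfbi by 1.91.

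**Figure D3:**
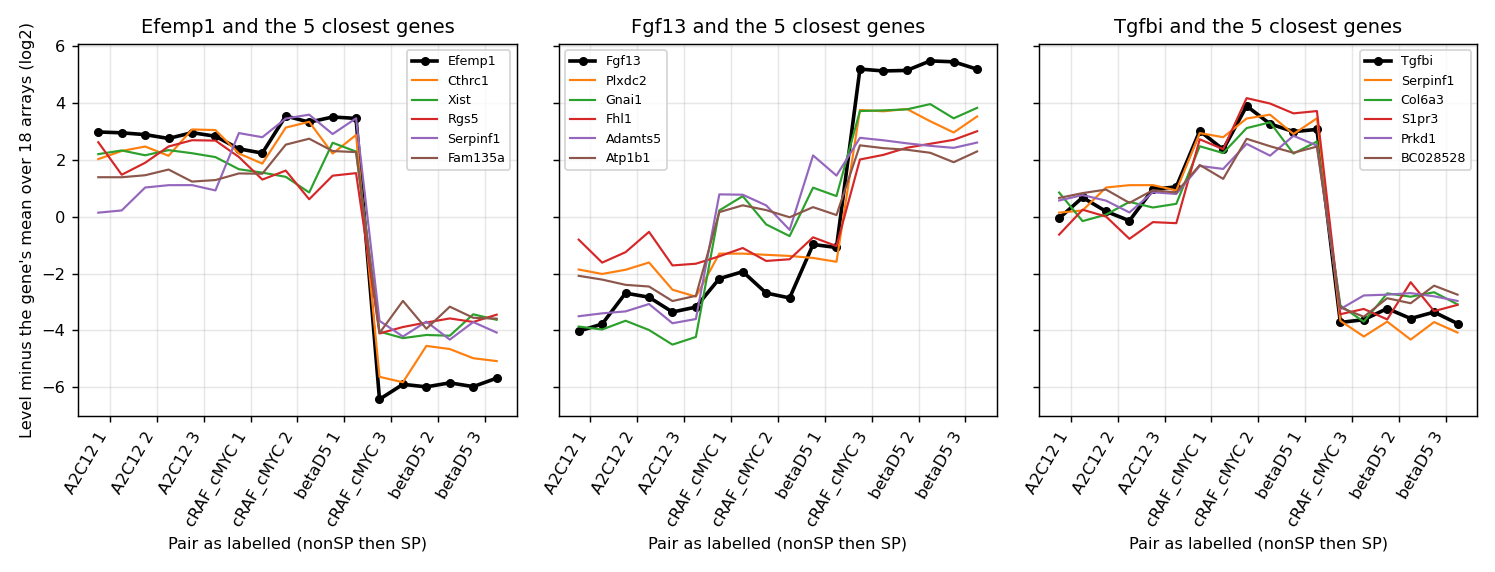
Level of each member (black) and of the 5 genes closest to it (colours), each minus its own mean over the 18 arrays (y axis, log2), with arrays ordered by labelled pair (x axis). The step between the 12 arrays on the left and the 6 on the right is seen in the members and in most genes drawn, at a mean absolute difference from the member of 0.40 to 1.98.

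Sex-linked genes gave a division of the arrays that does not use the 3 members. All 3 Xist probe sets had their widest gap at the same place: the one with the highest mean read 5.66 to 6.50 on the arrays of betaD5 2, betaD5 3 and cRAF_cMYC 3, 10.78 to 12.53 on those of betaD5 1, cRAF_cMYC 1 and cRAF_cMYC 2 and 12.03 to 12.27 in A2C12. Eif2s3y, a Y-linked translation factor, on 1 of its 2 probe sets read 5.29 to 6.77 on the arrays of betaD5 1, cRAF_cMYC 1 and cRAF_cMYC 2 and at most 4.10 on the other 12. Both pairs that stood apart from their label in Efemp1, Fgf13 and Tgfbi thus did so in Xist and Eif2s3y too. Of the Y-linked demethylase Kdm5d, 1 of 3 probe sets divided the arrays as Eif2s3y did, at 4.15 to 4.83 against at most 3.70. The other Kdm5d probe sets, the other Eif2s3y probe set and the 4 of Uty, a Y-linked relative of a demethylase, lay between 2.64 and 6.37, and none had its widest gap where the members do.

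Among genes of the fibulin family and of elastic fibres, 19 of 22 had a probe set used here and 14 passed the filter. Besides Efemp1, 3 of the 14 had their widest gap at the same place, all in the direction of Fgf13. Of all genes tested 2.56% (279) shared this direction, and a separate count after centring on array medians gave 152. Fbln5, fibulin-5, which links elastin to cells, read 11.73 to 12.04 on the 6 arrays low in Efemp1 and 6.89 to 10.13 on the others. Lox, the enzyme that crosslinks collagen and elastin, read 14.21 to 14.31 against 12.52 to 13.48, and Ltbp3, which holds latent transforming growth factor beta in the matrix, 12.80 to 13.04 against 11.47 to 12.42. These levels are without rescaling. The percentiles of Ltbp3 on the arrays overlapped, at 97.68 to 98.39 against 94.00 to 97.74, whereas those of Fbln5 and Lox did not. The fibulins Efemp1 and Fbln5 therefore differed in opposite directions.

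Of the relatives and channel partners of Fgf13, 14 of 17 had a probe set used here and 3 passed the filter: Fgf13, Mapk8ip2, a scaffold protein that binds Fgf13 relatives, and the kinase Map2k4. No sodium channel gene passed it. Scn8a, a sodium channel alpha subunit named after its values were seen, read 4.79 to 6.31 over all arrays.

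Of the relatives, receptors and signalling genes of Tgfbi, 22 of 23 had a probe set used here and 21 passed the filter. Besides Tgfbi, 1 of them divided the arrays alike, in the direction of Fgf13 (2.56% of all genes tested): the ligand Tgfb3 read 10.07 to 10.39 on the 6 arrays low in Tgfbi and 8.07 to 9.05 on the others. Postn, periostin, the closest relative of Tgfbi and named after its values were seen, was high on the arrays of betaD5 1, cRAF_cMYC 1 and cRAF_cMYC 2, at 10.22 to 11.69. It read 5.49 to 6.04 on those of betaD5 2, betaD5 3 and cRAF_cMYC 3 and 4.48 to 5.51 in A2C12, so unlike Tgfbi it had no middle level in A2C12.

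Some marker lists of other cell types differed between these sets of arrays. The mean level of 8 fibroblast markers was 10.16 to 10.74 on the arrays of betaD5 2, betaD5 3 and cRAF_cMYC 3, 11.66 to 12.34 on those of betaD5 1, cRAF_cMYC 1 and cRAF_cMYC 2 and 9.27 to 9.54 in A2C12. The members of this list did not move as one. The collagen chain Col1a1 divided the arrays as Fgf13 did in level without rescaling, at 12.74 to 13.01 against 11.08 to 12.19. Its percentiles on the arrays overlapped, at 97.56 to 98.34 against 92.23 to 97.95. The other list members named here were chosen after their values were seen. Thy1, a surface protein, was high on the arrays of betaD5 1, cRAF_cMYC 1 and cRAF_cMYC 2, at 10.01 to 12.18, against 5.11 to 6.0 elsewhere, and the receptor Pdgfra read 11.44 to 12.92 there against 7.94 to 9.79. The mean of 6 mesothelial markers was 9.49 to 10.37 and 9.01 to 11.11 in the first 2 of these sets, which overlapped, and lower in A2C12, where Upk3b read 3.80 to 4.61. The mean of 8 epithelial markers was 6.65 to 7.59 over all arrays, with overlap between the sets. The mean of 7 alveolar type II markers was 6.80 to 7.22 on the arrays of betaD5 2, betaD5 3 and cRAF_cMYC 3. On the other 12 it was 6.17 to 6.77, so the sets did not overlap but nearly met. These means are without rescaling, and the array medians differed by more, from 5.80 to 6.72. Of the 2 alveolar type II markers that passed the filter, 0 had their widest gap between these sets. The means of the club cell, leukocyte and endothelial lists overlapped between these 6 and the other 12 arrays. The part of such cells in the levels of the 3 genes was not tested.

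The comparison of SP with nonSP cells did not enter the choice of the genes and was tested. No member passed the threshold (limma, adjusted p under 0.05) in any line or in the mean of the lines, and neither did any other of the 10916 genes in A2C12 (0.0%), betaD5 (0.0%), cRAF_cMYC (0.0%) or the mean (0.0%). At an unadjusted p under 0.05 there were 1, 14, 18 and 36 genes, and 187, 1298, 899 and 1437 in a fit that pairs arrays by replicate number, which also called 0. Without the pairs betaD5 1 and cRAF_cMYC 3 that fit called 15 genes in betaD5, none of them a member, and 0 in the other 3 comparisons. The betaD5 comparison then rests on pairs 2 and 3, whose pairing by number the array correlations did not settle. Their SP arrays had the largest 3' to 5' differences of the Gapdh control, 0.76 and 0.97 (log2), against at most 0.56 on other arrays. The part of RNA quality in these 15 calls was not tested. Without pairing, the SE of a difference in 1 line was 2.96 for Efemp1, 2.26 for Fgf13 and 2.16 for Tgfbi, since it holds the gaps between pairs. Such an SE cannot show a difference of the size seen within pairs, so intervals below are from the paired fit.

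Efemp1 differed little between fractions. In A2C12 the difference of SP minus nonSP was -0.03, -0.13 and -0.13 in pairs 1 to 3, with a mean of -0.10 (paired SE 0.13, 95% interval -0.39 to 0.20). In betaD5 it was -0.05, 0.14 and 0.30, mean 0.13 (interval -0.16 to 0.43), and in cRAF_cMYC -0.15, -0.22 and 0.53, mean 0.05 (interval -0.24 to 0.35). The mean of the lines was 0.03 (interval -0.14 to 0.20; paired limma, adjusted p = 0.906). The 6 pairs with high Efemp1 were all lower in SP cells, at -0.22 to -0.03, and the 3 pairs with low Efemp1 were all higher, by 0.14 to 0.53. Arrays of the latter read only 3.93 to 4.68. The pairs are sorted here by the same levels that chose the gene, and no test was made of this pattern. Without the pairs betaD5 1 and cRAF_cMYC 3 the cRAF_cMYC difference turned to -0.18 and the mean to -0.02, and the betaD5 difference was 0.22 (paired SE 0.10; paired limma, adjusted p = 0.249).

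Of the 9 pairs, 4 had more Fgf13 in SP cells on 1418497_at. On 1418498_at 6 of 9 did, with differences from -0.44 to 0.61. On 1418497_at the difference lay between -0.26, in betaD5 3, and 0.34, in betaD5 2, and the pairs of every line held both signs. The mean of the lines was 0.03 (paired SE 0.08, 95% interval -0.14 to 0.20; adjusted p = 0.906 in the paired limma fit). For the mean of the lines the interval leaves room for a difference from -0.14 to 0.20, against a gap of 6.11 between the sets of arrays. It does not bound the difference in a single line or pair. Without the pairs betaD5 1 and cRAF_cMYC 3 the mean was 0.06 and the difference 0.04 in both betaD5 and cRAF_cMYC, against -0.01 and 0.00 with them.

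Tgfbi had the largest differences of the 3 genes, all uncalled. In cRAF_cMYC it was lower in SP cells of pairs 1 and 2, by -0.65 and -0.63, and read 0.10 higher in pair 3, where its level is low. Their mean was -0.39 (paired SE 0.20, 95% interval -0.83 to 0.04; paired limma, adjusted p = 0.636). On the 4 probe sets the difference was -0.56 to -0.72 in pairs 1 and 2 and 0.00 to 0.27 in pair 3. Without the pairs betaD5 1 and cRAF_cMYC 3 the mean was -0.64 (interval -1.12 to -0.16), which did not pass the threshold over all genes (paired limma, adjusted p = 0.985).

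In betaD5 the Tgfbi difference was 0.08, -0.35 and -0.40 in pairs 1 to 3, mean -0.23 (interval -0.66 to 0.21). In A2C12 it was 0.73, -0.33 and 0.09, mean 0.16 (interval -0.27 to 0.60). The mean of the lines was -0.15 (interval -0.40 to 0.10; paired limma, adjusted p = 0.592). Without the pairs betaD5 1 and cRAF_cMYC 3 the betaD5 difference was -0.38 (interval -0.85 to 0.10; paired limma, adjusted p = 0.336). The mean of the lines was then -0.28 (interval -0.54 to -0.03), which did not pass the threshold over all genes (paired limma, adjusted p = 0.345). The difference between A2C12 and cRAF_cMYC in the SP effect, 0.56 (paired SE 0.28), was not called either (paired limma, adjusted p = 0.973). These values are from the probe set that stands for Tgfbi. On its other probe sets betaD5 2 differed by -0.24, -0.08 and 0.15, and betaD5 3 by -0.14, 0.05 and -0.35. The arrays of these pairs read 3.75 to 4.98 there, and the sign differed between probe sets. With the mean of all probe sets the A2C12 difference was 0.04. The SP arrays of betaD5 2 and 3 had a 3' to 5' difference of the Gapdh control of 0.76 and 0.97 (log2), against -0.08 to 0.56 on the other 16 arrays, and the part of RNA quality in the differences of these pairs was not tested.

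**Figure D4:**
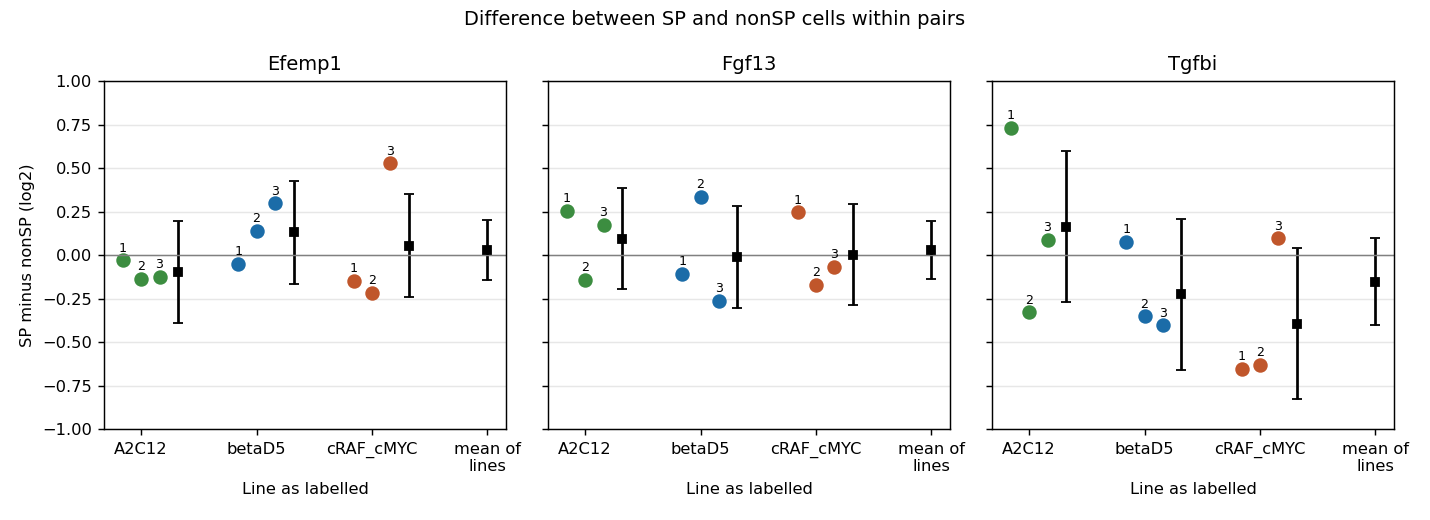
SP minus nonSP (y axis, log2) of each gene for each labelled pair (coloured points with the pair's number), by labelled line and averaged over lines (x axis). Black squares are means of the paired limma fit with 95% intervals, all of which include 0.

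In the 3 gene lists no gene passed the threshold in any SP comparison, in either direction. In the mean of the lines 4 of the 14 fibulin and elastic fibre genes lay above 0, with a median of -0.06, and 12 of the 21 genes around Tgfbi, with a median of 0.06, against a median of 0.01 over all 10916 genes. The SEs in this paragraph and the choice of genes by p are from the unpaired fit, whose SE holds the gaps between pairs. In that fit the smallest p values were those of Timp3, a protease inhibitor that binds fibulin-3, at -0.17 (SE 0.15), and Emilin1, an elastic fibre protein, at -0.18 (SE 0.18). Around Tgfbi they were those of Skil, a repressor of Smad signalling, at 0.21 (SE 0.18), and Smad2, a transducer of transforming growth factor beta, at 0.19 (SE 0.17). In the list of Fgf13, Map2k4 differed by 0.06 (SE 0.18) and Mapk8ip2 by -0.05 (SE 0.15). All 6 had an adjusted p = 0.9998 in the unpaired limma fit and 0.311 to 0.775 in the paired one.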

How the data were processed

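The authors deposited log2 signals, 1 for each of 45101 probe sets on 18 Affymetrix 3' expression arrays, processed with Affymetrix Expression Console per the submitters' processing notes. Its version, summary algorithm and normalization are not given in the sources used here, and the array medians differ, so the arrays were not brought to 1 distribution. They entered all steps without rescaling.

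Left out were the 64 control probe sets and 932 with several gene symbols, and 34741 of 34945 symbols were matched through gene identifiers. The probe set of highest mean signal stood for a gene, and genes in the lowest 40% by that mean were not tested. R 4.3.3 and limma 3.58.1 (eBayes with a trend, two-sided, Benjamini-Hochberg over all genes) fitted 6 group means to all arrays (12 residual degrees of freedom), and with a replicate block 6 remained. Replicate numbers were used as pairing. Same-numbered arrays deviated together from their labelled group means in all 9 pairs (r 0.426 to 0.952). For 8 of 9 nonSP arrays the SP array of the same number was closest, but not for betaD5 3. In betaD5 and cRAF_cMYC the group means mix unlike pairs, which by itself raises r, so the check is weaker there. It does not settle the pairing of betaD5 2 and 3. Their r was 0.618 and 0.600 with the same number, against at most 0.567 and 0.684 with another. The fits were tested on simulated data.

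The members and lists were chosen with earlier results of these data known. Named genes were the members, the 5 genes closest to each and the 3 closest with the sign turned, the list genes with the smallest p, those that divided the arrays as a member did and the sex-linked genes. Of each marker list the gene with the highest mean was to be named, and Krt19 and Upk3b are named here under that rule. Alternatives were other normalizations, filters and probe set choices, no trend, the block, and arrays or pairs left out.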

Additional observations from a re-analysis of the deposited data

How the results depend on the processing

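The sets of arrays that the widest gap of each member divides were the same under every normalization and probe set choice run, except on Fgf13 1418498_at (gap 0.43). The gap of Efemp1 was 8.56 after quantile normalization and 8.46 after centring on array medians, and that of Tgfbi 3.87 and 3.69. On the other Tgfbi probe sets it was 2.01 (1415871_at) and 4.46 (1456250_x_at), and for Fgf13 it was 3.39 with the mean of its probe sets and 7.08 without the pairs betaD5 1 and cRAF_cMYC 3. Genes divided as Efemp1 and Tgfbi numbered 386 (quantile) and 307 (medians) against 116, and those divided as Fgf13 152 (medians) against 279.

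The replicate block, or the paired fit, changed no call of a member and no count of calls. Together with leaving out the pairs betaD5 1 and cRAF_cMYC 3, chosen after seeing the data, it called 15 genes in betaD5, none of them a member. The part of RNA quality in these calls was not tested. Without these pairs Efemp1 turned to -0.18 in cRAF_cMYC and -0.0201 in the mean of the lines, with or without the block. The SP difference of Fgf13 in betaD5, -0.01, turned to 0.0374 without them (with or without the block), 0.0031 after quantile normalization, 0.045 after centring and 0.0297 with the mean of its probe sets. The cause was not tested.

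With 1 array left out at a time and no pairing, no gene was called in any of the comparisons. The SP difference ranged in A2C12 from -0.15 to -0.05 (Efemp1), -0.24 to 0.43 (Fgf13) and -0.10 to 0.50 (Tgfbi). It ranged in betaD5 from -2.94 to 3.29, -2.10 to 2.13 and -2.47 to 1.87, in cRAF_cMYC from -3.08 to 2.95, -2.51 to 2.54 and -2.79 to 1.75, and in the mean from -1.01 to 1.08, -0.81 to 0.88 and -0.95 to 0.56. The wide ranges in these 2 lines arise because 1 array then lacks its partner and high and low arrays are unbalanced. The lowest adjusted p of a member among these fits was 0.942.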
